A study of Mus musculus with 12 samples.

Results

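The genes described here are 10 genes of nicotinamide adenine dinucleotide (NAD) synthesis and use, namely Nmrk1, Nmrk2, Nampt, Nmnat1, Nmnat3, Nnt, Sirt1, Sirt3, Sirt5 and Parp1. They were chosen by name for their role, with earlier results of these data known, and are 10 of the 26921 genes in the count table. RNA-seq was performed on left ventricular tissue of 16-week-old mice of both genotypes, 6 WT and 6 cmGch1 KO, with 1 animal per library. All 12 animals carried floxed Gch1 alleles. The cmGch1 KO animals also carried 1 copy of a Cre transgene driven in cardiomyocytes by the α-MHC promoter, so that the other cell types of the ventricle kept an intact Gch1. Gch1 encodes GTP cyclohydrolase, the rate-limiting enzyme of tetrahydrobiopterin synthesis. The comparison asks whether loss of Gch1 in cardiomyocytes goes with a change in the RNA of the genes that make, move and spend NAD. No sequenced animal carried Cre without floxed Gch1, so Cre and loss of Gch1 cannot be told apart here.

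NAD carries electrons from fuel oxidation to the respiratory chain and is also consumed as a substrate. Heart muscle rebuilds most of its NAD from nicotinamide, which NAMPT converts to nicotinamide mononucleotide, and from nicotinamide riboside, which the kinases NMRK1 and NMRK2 phosphorylate. The NMNAT enzymes join the mononucleotide to an adenylyl group to give NAD, with NMNAT1 placed in the nucleus and NMNAT3 in mitochondria. Sirtuins use NAD to remove acyl groups from proteins, and PARP1 uses it to build ADP-ribose chains at damaged DNA. NNT, in the inner mitochondrial membrane, passes electrons from NADH to NADP+.

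The libraries held between 19921398 and 37917806 counts. Gch1 (ENSMUSG00000037580) averaged 10.7 ± 0.974 cpm in the 6 WT libraries and 5.48 ± 0.855 cpm in the 6 of cmGch1 KO (mean ± SD, cpm being read counts as a share of the library total, scaled by TMM factors), with no overlap, a log2 fold change of -0.96 (SE 0.11, edgeR quasi-likelihood test, FDR 6.88e-04). All 10 cardiomyocyte markers were detected in every library. Their summed level lay between 86523 and 91443 cpm in WT and between 76962 and 84039 cpm in cmGch1 KO, and 9 of the 10 had a negative log2 fold change, none with an FDR under 0.05. In bulk tissue, fewer cells of a type and less RNA per cell cannot be told apart. Macrophage markers summed to 238 to 369 cpm in WT and 307 to 432 cpm in cmGch1 KO. Of these, 6 of 8 were higher at an unadjusted edgeR p under 0.05, as were 7.01% of all tested genes. All 8 fibroblast markers had a positive log2 fold change, 3 of them at that p. Of all 11225 tested genes, 5241 had a positive one. Endothelial markers had 3 negative and 5 positive values. Pericyte and smooth muscle markers had 6 negative and 2 positive, with Acta2 higher at an edgeR FDR of 0.00672. The part of these cell types in the results below was not tested. The libraries of cmGch1 KO replicates 2 and 3 stood apart. They held 86.7 and 99.1 cpm of Xist, against at most 0.234 cpm in the other 10, and no count of the Y-linked genes examined, and mitochondrial genes made up 14.9% and 16.1% of their counts against 18.3% to 22.9%. In the other 10 the Y-linked genes summed to 167 to 192 cpm, so that by these genes replicates 2 and 3 read as female and the others as male. The labels give no sex. WT has no library of this kind, so sex and genotype are partly confounded. Values without cmGch1 KO replicates 2 and 3 are given for many, but not all, of the genes and ratios below.

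Nampt and Nmnat3 had an unadjusted edgeR p under 0.05, and only Nmrk2 had a positive log2 fold change. None of the 3 passed an FDR of 0.05. The stretch before the transcription start is shown for these 3 of the 10 genes. Each is the 250 bases upstream of a RefSeq transcript start on GRCm38.p6, written 5′ to 3′ on the gene's own strand, with matches to TATAAA and GGGCGG on either strand in capitals. Nmrk2 lies at chr10:81202038-81202287 on the minus strand, Nampt at chr12:32820085-32820334 on the plus strand and Nmnat3 at chr9:98296320-98296569 on the plus strand. GENCODE M21 places earlier starts for Nampt and Nmnat3, so that both stretches lie inside the annotated gene, outside its exons. The stretch of Nmrk2 holds 14 bases of annotated exon.
Nmrk2: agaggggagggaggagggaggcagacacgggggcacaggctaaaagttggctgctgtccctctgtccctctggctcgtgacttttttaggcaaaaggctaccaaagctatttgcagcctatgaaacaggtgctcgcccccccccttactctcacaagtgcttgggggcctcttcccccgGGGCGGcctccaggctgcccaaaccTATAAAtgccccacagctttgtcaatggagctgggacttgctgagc
Nampt: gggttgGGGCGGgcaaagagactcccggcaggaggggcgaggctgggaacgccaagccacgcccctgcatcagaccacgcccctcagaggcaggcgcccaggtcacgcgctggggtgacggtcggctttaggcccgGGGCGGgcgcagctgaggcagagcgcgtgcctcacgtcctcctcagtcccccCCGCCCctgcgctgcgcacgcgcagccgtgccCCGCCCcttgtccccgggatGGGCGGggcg
Nmnat3: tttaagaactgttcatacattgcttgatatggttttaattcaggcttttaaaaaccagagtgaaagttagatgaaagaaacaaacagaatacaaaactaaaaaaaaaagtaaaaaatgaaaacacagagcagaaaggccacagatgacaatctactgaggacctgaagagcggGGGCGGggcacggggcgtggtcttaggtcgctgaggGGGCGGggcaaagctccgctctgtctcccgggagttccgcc
Among the 9 genes with such a sequence, only that of Nmrk2 held TATAAA, starting at position -46 from the transcript start, against 12.4% of the 32851 windows of 250 upstream bases. The 9 genes had 11 windows, with 2 each for Nmnat1 and Sirt3. The GC box GGGCGG was found in 8 of the 9 genes, 9 of the 11 windows and 32.7% of all windows. Nampt had 5 matches and Nmnat3 had 2. In Sirt3 the match lay only in the second window, all 250 bases of which are in annotated exons. CCAAT was present in 4 genes, 4 of the 11 windows and 33.8% of all windows. The E-box CACGTG was present in 2 genes, Sirt1 and Parp1, 2 of the 11 windows and 6.02% of all windows. All 4 motifs were searched on both strands. A match of letters is a description of the sequence and does not show that a factor binds there.

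All 10 genes passed the minimum of 3 cpm in at least 6 libraries, and their counts ran from 82 to 39424 per library. Levels were compared between genes as cpm per kilobase of annotated exon. In WT the order was led by Nnt at 153 ± 14.5 and Nampt at 51.1 ± 4.14 (SD, n = 6), and ended with Sirt1 at 2.58 ± 0.351 and Nmrk1 at 1.09 ± 0.209. Between them lay Parp1 (12.1), Nmnat1 (9.14), Sirt3 (7.75), Nmnat3 (4.86), Sirt5 (4.73) and Nmrk2 (3.25). The WT ranges of neighbours did not overlap between Nnt and Nampt, Nampt and Parp1, Sirt3 and Nmnat3, or Sirt1 and Nmrk1. The remaining neighbours in the order overlapped. In cmGch1 KO the order was the same except that Nmnat3, at 3.80 cpm per kilobase, lay in 8th place below Sirt5 and Nmrk2.

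**Figure D1:**
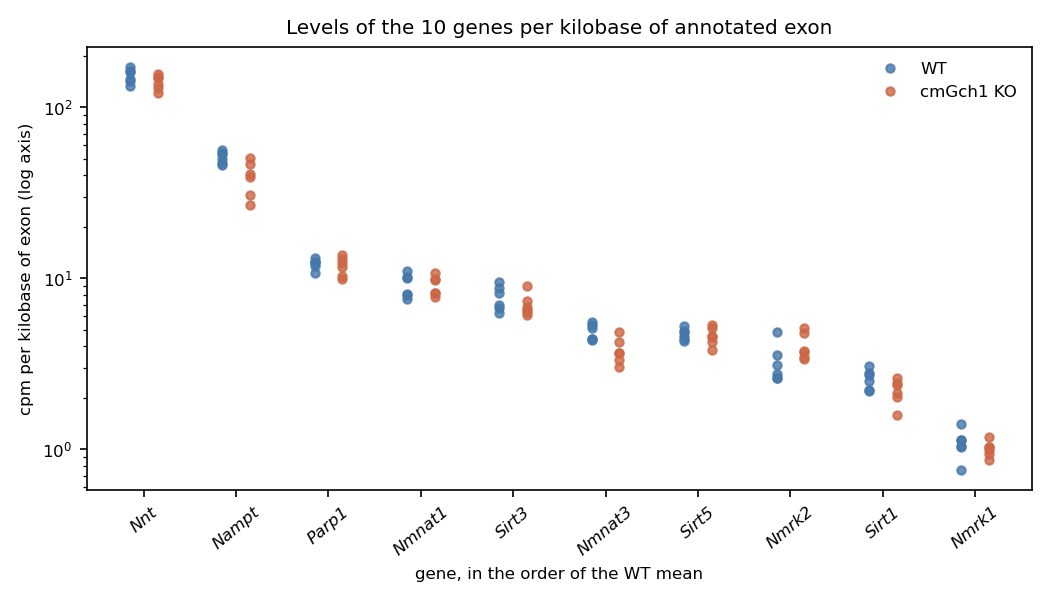
Each point is 1 library, with the level in cpm per kilobase of exon on a log axis and the genes in the order of their WT mean. Nnt and Nampt lie above the other 8 genes in every library of both genotypes.

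None of the 10 genes passed an FDR of 0.05 between genotypes, as tested by the edgeR quasi-likelihood fit and adjusted by Benjamini-Hochberg over all 11225 tested genes, of which 1.12% passed, 0.445% lower and 0.677% higher in cmGch1 KO. DESeq2's Wald test also called 0 of the 10. Of the 10, 9 had a negative log2 fold change and 1, Nmrk2, a positive one, where 53.3% of all tested genes were negative. Their median log2 fold change was -0.12, against -0.01 over all tested genes. Nampt and Nmnat3, 2 of the 10, were lower in cmGch1 KO with an unadjusted p below 0.05, as were 4.51% of tested genes. With counts scaled by library size alone, 6 of the 10 were negative and the median of all genes moved to 0.07.

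**Figure D2:**
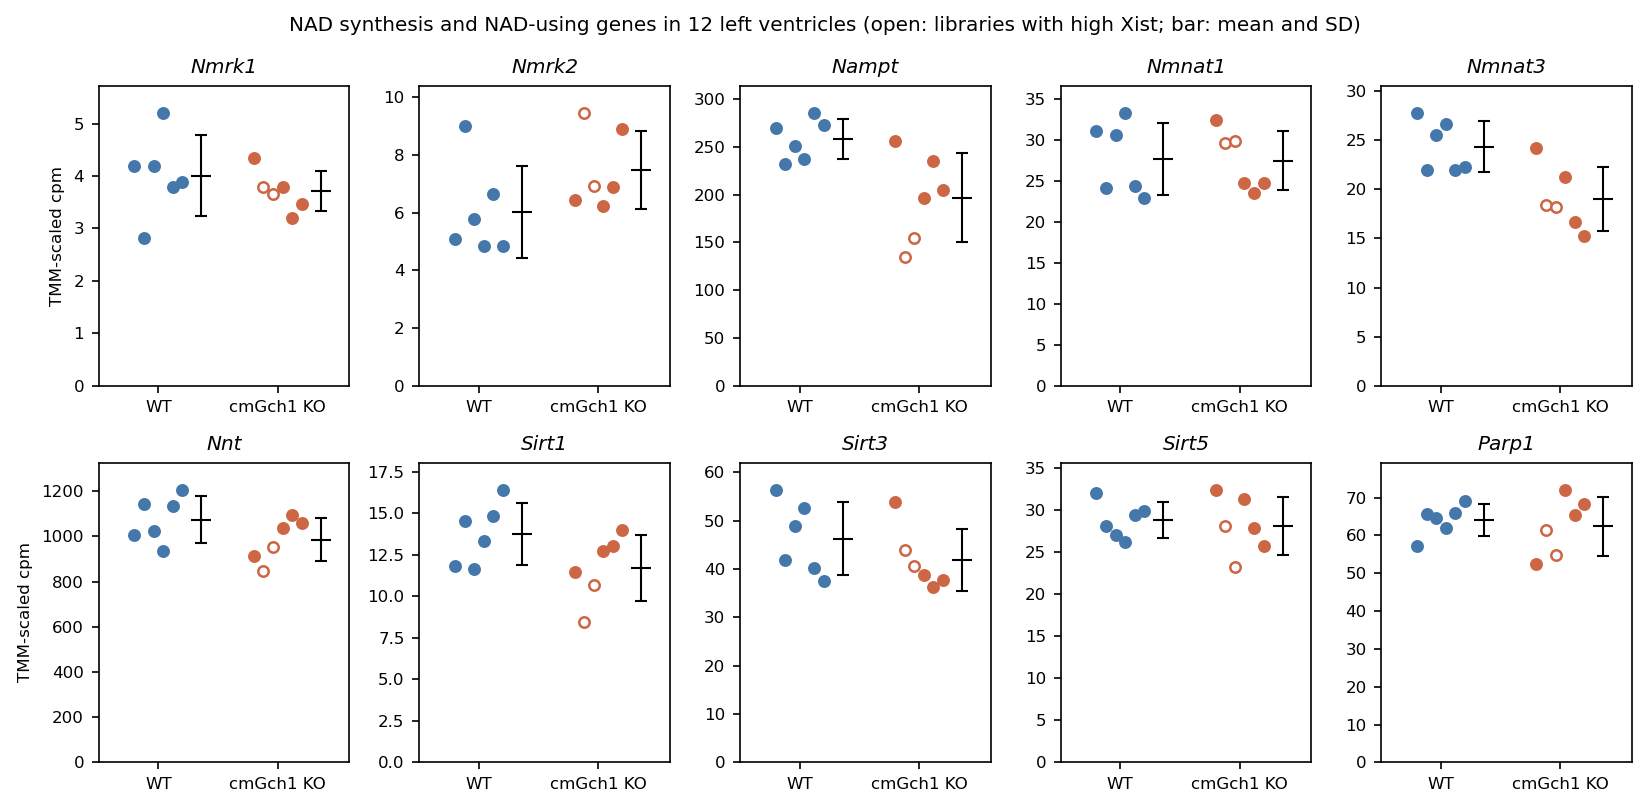
Each panel shows TMM-scaled cpm of 1 gene in the 6 WT and 6 cmGch1 KO libraries, with the mean and SD beside the points and cmGch1 KO replicates 2 and 3 as open circles. For Nampt these open circles are the lowest of the 12 libraries, at 135 and 155 cpm.

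Nampt (ENSMUSG00000020572, chr12:32819545-32853349 on GRCm38), the rate-limiting enzyme of nicotinamide salvage, ranged in WT from 233 to 285 cpm with a median of 260 cpm. In cmGch1 KO it ranged from 135 to 256 cpm with a median of 201 cpm. The groups overlapped, but 4 of 6 cmGch1 KO libraries lay below every WT library and 3 WT libraries above every cmGch1 KO library. The log2 fold change was -0.39 (SE 0.13, 95% interval -0.68 to -0.10, FDR 0.228 by edgeR), and an exact permutation test of the cpm gave p = 0.0173 (two-sided, smallest possible 0.00216). Without cmGch1 KO replicates 2 and 3 the other 4 libraries held 197 to 256 cpm, the log2 fold change was -0.21, and the exact p was 0.0762 (smallest possible 0.00952).

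The kinases of the nicotinamide riboside route were lower per kilobase than Nampt in every library. Nmrk2 (chr10:81198170-81202051), the muscle form, ranged from 4.83 to 8.98 cpm in WT, with a median of 5.43, and from 6.21 to 9.44 cpm in cmGch1 KO, with a median of 6.91. The highest WT library, replicate 2, lay above all but 1 cmGch1 KO library, while 4 WT libraries lay below every cmGch1 KO library. The log2 fold change was 0.30 (SE 0.17, 95% interval -0.05 to 0.66, edgeR FDR 0.540, exact permutation p = 0.132). Without cmGch1 KO replicates 2 and 3, of which replicate 2 was the highest library, it was 0.24 (edgeR FDR 0.968, exact permutation p = 0.295). Of the 1854 exon bases of Nmrk2, 270 (14.6%) are shared with the antisense gene Atcayos, which had 838 to 2482 counts against 106 to 322 for Nmrk2. Atcayos itself had a log2 fold change of 0.03 (edgeR FDR 0.974). The libraries were stranded, but the strand setting of the counting is not given in the sources used here, so reads in the shared bases may not have been separated. Nmrk1, the broadly expressed kinase, ranged from 2.81 to 5.20 cpm in WT and from 3.19 to 4.33 cpm in cmGch1 KO, so that the cmGch1 KO libraries lay within the WT range, and its log2 fold change was -0.11 (SE 0.14, edgeR FDR 0.851). It was -0.02 without WT replicate 4, the highest WT library, and -0.20 without WT replicate 2, the lowest.

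The NMNAT genes, which complete NAD synthesis, had unlike values. Nmnat3 (ENSMUSG00000032456, chr9:98287435-98420438), the mitochondrial form, ranged from 21.9 to 27.7 cpm in WT, with a median of 23.9, and from 15.2 to 24.2 cpm in cmGch1 KO, with a median of 18.3. All cmGch1 KO libraries but replicate 1 lay below every WT library. The log2 fold change was -0.36 (SE 0.11, 95% interval -0.60 to -0.12, edgeR FDR 0.182), with an exact permutation p of 0.0152. Leaving out cmGch1 KO replicate 1 gave -0.44 with an FDR of 0.0422, the one omission of a single library that brought any of the 10 genes past the threshold. Without cmGch1 KO replicates 2 and 3 the value was -0.34 (exact permutation p = 0.0667, edgeR FDR 0.619). Nmnat1, the nuclear form, ranged from 22.9 to 33.3 cpm in WT and from 23.5 to 32.4 cpm in cmGch1 KO. Its groups lay over each other, with a log2 fold change of -0.01 (95% interval -0.26 to 0.23, edgeR FDR 0.985).

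**Figure D3:**
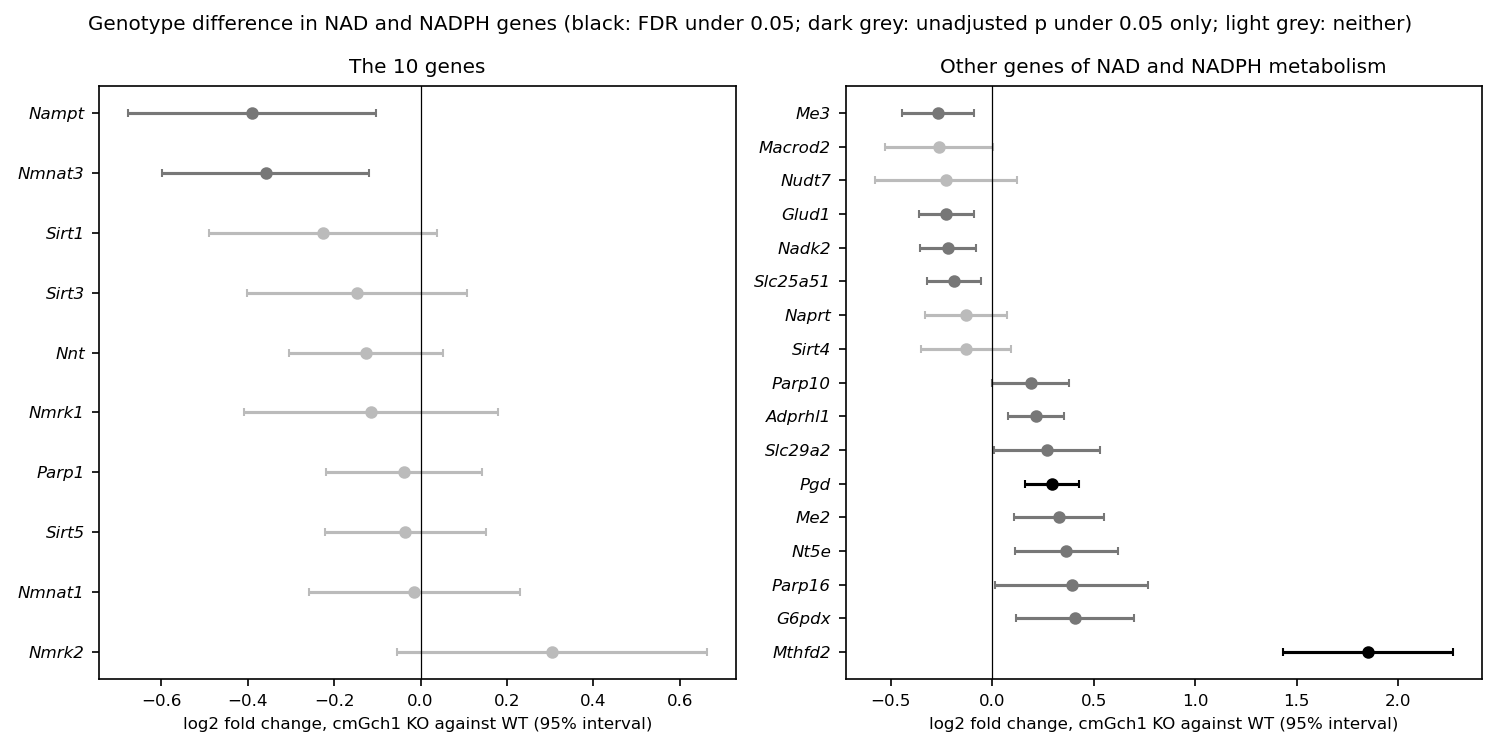
Points give the genotype difference on the log2 scale (cmGch1 KO minus WT) and bars its 95% interval for the 10 genes on the left and for the named genes of NAD and NADPH metabolism on the right, on different horizontal scales. Mthfd2 at 1.85 and Pgd at 0.29 are the genes past an FDR of 0.05.

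Because both genes of a ratio are counted in the same library, a ratio does not depend on the scaling between libraries. The 3 ratios reuse genes described above, so they are not separate results. How often ratios of other genes reach such values was not computed. The log2 ratio of Nmnat3 to Nmnat1 was -0.18 ± 0.10 (SD, n = 6) in WT, from -0.32 to -0.04, and -0.54 ± 0.20 (n = 6) in cmGch1 KO, from -0.71 to -0.22. All cmGch1 KO libraries but replicate 4 lay below every WT library. The difference of -0.36 had an exact permutation p of 0.00649 (two-sided, 0.0195 after adjustment over the 3 ratios only). Nmnat1 itself had a log2 fold change of -0.01, so this ratio restates the difference in Nmnat3, whose edgeR FDR over all tested genes was 0.182. Replicates 2 and 3 of cmGch1 KO, at -0.69 and -0.71, were among the lowest. Of the rest, replicates 1, 5 and 6 (-0.42, -0.50 and -0.70) lay below every WT library and replicate 4 (-0.22) did not. A difference without replicates 2 and 3 is not given here for this ratio. The log2 ratio of Nmrk2 to Nampt was -5.45 ± 0.40 in WT and -4.70 ± 0.54 in cmGch1 KO, and 3 cmGch1 KO libraries lay above every WT library. Its difference of 0.75 had an exact permutation p of 0.0195 (adjusted 0.0292), and 0.47 with an exact p of 0.0857 without cmGch1 KO replicates 2 and 3. The log2 ratio of Nmrk2 to Nmrk1 was 0.57 ± 0.61 in WT and 0.99 ± 0.32 in cmGch1 KO, with overlapping groups and a difference of 0.42 (exact permutation p = 0.165). Without WT replicate 2, the highest of that group, the difference was 0.64 with an exact p of 0.0130.

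**Figure D4:**
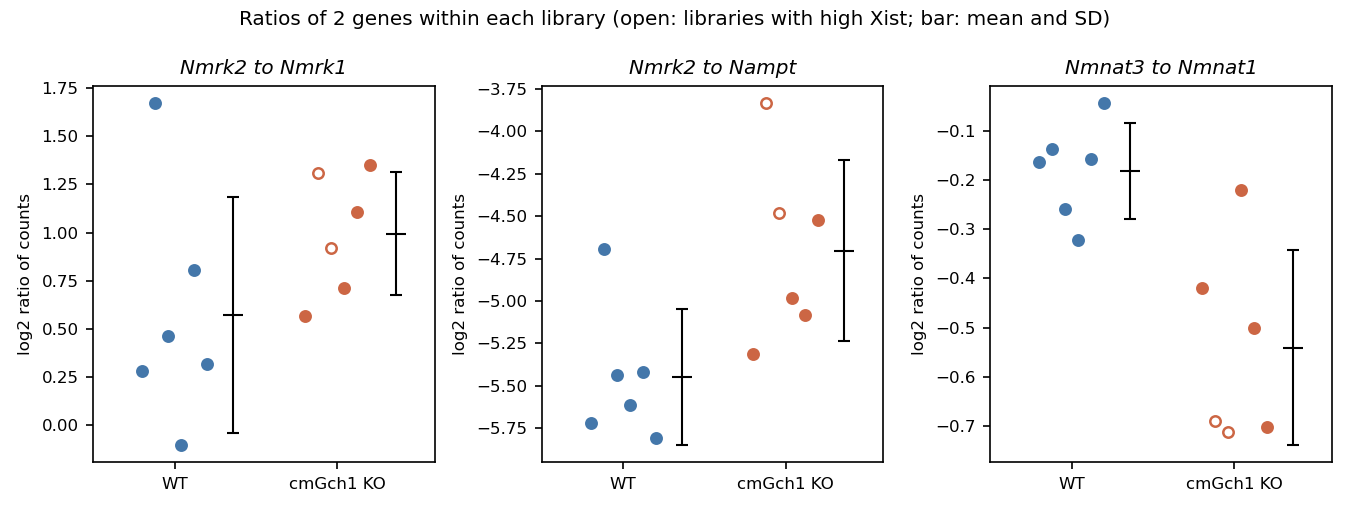
The log2 ratio of counts of 2 genes is plotted for each library, with the mean and SD of each genotype beside the points and cmGch1 KO replicates 2 and 3 as open circles. For Nmnat3 to Nmnat1, 5 of 6 cmGch1 KO libraries lie below all 6 WT libraries.

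Nnt (ENSMUSG00000025453), the transhydrogenase, was the most abundant of the genes at 933 to 1206 cpm in WT and 847 to 1093 cpm in cmGch1 KO. For Nnt, 3 WT libraries lay above every cmGch1 KO library, and the groups otherwise overlapped, with a log2 fold change of -0.13 (SE 0.08, edgeR FDR 0.647), and -0.07 without cmGch1 KO replicates 2 and 3, of which replicate 2 was the lowest. Counts per gene do not show which exons of Nnt were used.

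Among the enzymes that spend NAD, Sirt1, the nuclear deacetylase, ranged from 11.6 to 16.4 cpm in WT and from 8.47 to 14.01 cpm in cmGch1 KO. Its lowest values, 8.47 and 10.7 cpm, were again in cmGch1 KO replicates 2 and 3, and the log2 fold change was -0.23 (edgeR FDR 0.540) with all libraries and -0.10 without them. Sirt3, the main mitochondrial deacetylase, ranged from 37.6 to 56.4 cpm in WT and from 36.2 to 53.8 cpm in cmGch1 KO, with a log2 fold change of -0.15 (SE 0.12, edgeR FDR 0.734). Without WT replicate 1 it was -0.08, and without cmGch1 KO replicate 1 it was -0.23 (edgeR FDR 0.308). Its exons share 418 bases with Ric8a and 342 with Psmd13 on the opposite strand, to which the same limit on strand applies. Sirt5, which removes succinyl and malonyl groups, ranged from 26.2 to 32.1 cpm in WT and 23.2 to 32.4 cpm in cmGch1 KO. Parp1 ranged from 57.1 to 69.2 cpm in WT and 52.5 to 72.1 cpm in cmGch1 KO. The log2 fold change was -0.04 for both Sirt5 and Parp1 (95% intervals -0.22 to 0.15 and -0.22 to 0.14), and both changed sign with library size scaling and without cmGch1 KO replicates 2 and 3.

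Pairs of the genes were also compared between animals of 1 genotype. After the genotype means were removed, 12 of the 45 pairs had a Pearson correlation with an adjusted permutation p under 0.05 over the 12 libraries. These 12 (26.7%) had an r of at least 0.679 in size, a value that 15.8% of all pairs of tested genes reached, so the count is not called particular to these genes. The highest was between Nmnat1 and Sirt3, with r = 0.92 and Spearman's rho = 0.94 (100000 permutations, p = 2.00e-05, adjusted p = 9.00e-04), and r = 0.91 without the 2 libraries farthest from the median of Nmnat1. Nmnat3 varied with Sirt3 in the same direction (r = 0.82, rho = 0.84, permutation p = 9.60e-04, adjusted 0.00922, and r = 0.77 without the 2 libraries farthest from the median of Nmnat3). Nnt ran opposite to Nmnat1 (r = -0.93, rho = -0.85, permutation p = 2.10e-04, adjusted 0.00472, and r = -0.91 without the 2 libraries farthest from the median of Nmnat1). It ran alongside Sirt1 (r = 0.85, rho = 0.85, permutation p = 5.50e-04, adjusted 0.00825, and r = 0.89 without the 2 libraries farthest from the median of Nnt). The pair Nmrk1 and Nmrk2 had r = -0.69 (rho = -0.54, permutation p = 0.0125, adjusted 0.0469), but r = -0.26 without the 2 libraries farthest from the median of Nmrk1, and so rested on those. Nampt, Nmrk2 with any gene but Nmrk1, and Sirt5 formed no such pair. Without cmGch1 KO replicates 2 and 3, 15 pairs passed, including all 12.

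Most of these genes also lay along the main axis of variation between libraries. The first component of all tested genes, with genotype means removed, held 37.9% of the variance. Sirt3 (r = 0.96), Nmnat1 (0.95) and Nmnat3 (0.78) lay on one side of it, and Nnt (-0.91), Parp1 (-0.82) and Sirt1 (-0.78) on the other. Such a value, above 0.7 in size, was reached by 6 of the 10 genes, but not by Nmrk1 (0.65), Nmrk2 (-0.23), Nampt (-0.16) or Sirt5 (0.17), and by 41.0% of all tested genes. The loading on this component followed log2 exon length with a Spearman's rho of -0.62 across 11195 genes (genes are not independent replicates). The part of exon length or RNA quality in these correlations was not tested.

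**Figure D5:**
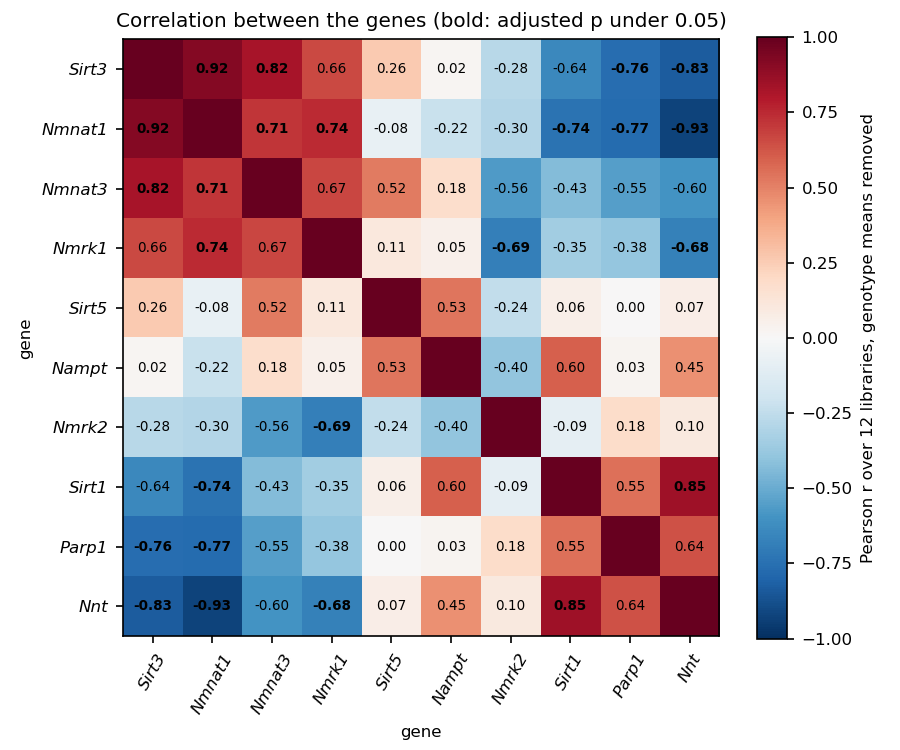
The Pearson r of log2 cpm over 12 libraries is given for each pair of genes after removal of the genotype means, with genes ordered by their correlation with the first component and pairs with an adjusted p under 0.05 in bold. Sirt3, Nmnat1 and Nmnat3 form a block of positive values and run opposite to Nnt.

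Over all tested genes, those whose genotype-centred profile was most like that of Nmnat3 were Wdr24 (r = 0.98), 1110059G10Rik (0.95) and Eci2 (0.95), over 12 libraries. Each such r was picked as among the highest over all tested genes, and no p was computed for it. For Nampt they were Aste1 (0.96), Ikzf5 (0.94) and Il10rb (0.93). For Nmrk2 they were Gda (0.90, rho = 0.71), Mlec (0.90, rho = 0.87) and Rab2b (0.87, rho = 0.62). Sirt3 was most like Mb (0.99), which encodes myoglobin, Tpd52l2 (0.99) and Tmem222 (0.99), and Nnt most like Klhl12 (0.99), Gtf2i (0.98) and Tcf4 (0.98). Nmnat1 was most like Cmss1 (0.99), Sirt1 most like Ccser2 (0.95), Parp1 most like Rbm25 (0.96), Sirt5 most like Micu2 (0.93) and Nmrk1 most like Gm6863 (0.94).

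Other genes of NAD and NADPH metabolism were read from 7 lists by function, also chosen with earlier results of these data known. The lists held 72 genes in all, of which 70 were in the table and 56 were tested. Of the 56, 2 passed an FDR of 0.05, both higher in cmGch1 KO, where 0.677% of all tested genes were, and 0 passed in the other direction. DESeq2's Wald test called 3 lower and 3 higher, and 3.32% of all tested genes (155 lower, 218 higher). An unadjusted p below 0.05 was reached by 4 genes with lower and 9 with higher values (background 4.51% and 7.01%). The ranges of 6 of the 56 did not overlap between genotypes, against 1.87% of all tested genes. Of the 11 genes listed for the de novo route from tryptophan and the Preiss-Handler route from nicotinic acid, 9, among them Tdo2, Ido1 and Qprt, were under the minimum, which 11225 of the 26921 genes in the table passed. The other two were Naprt and Nadsyn1.

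The genes that passed were both on the list of NADPH sources. Mthfd2, a mitochondrial folate dehydrogenase that works mainly with NAD+ and less with NADP+, ranged from 2.75 to 4.28 cpm in WT and from 6.87 to 16.0 cpm in cmGch1 KO, with no overlap and a log2 fold change of 1.85 (SE 0.20, edgeR FDR 6.39e-04). It kept its call whichever single library was left out. Its WT values lay near the minimum of 3 cpm, and it was not tested where that minimum was required in all 12 libraries. Pgd, a dehydrogenase of the pentose phosphate pathway, ranged from 28.0 to 30.7 cpm in WT and from 33.7 to 40.3 cpm in cmGch1 KO, with a log2 fold change of 0.29 (SE 0.06, edgeR FDR 0.0366). Pgd kept its call in 2 of the 12 omissions of a single library, and without cmGch1 KO replicates 2 and 3 its FDR was 0.155. G6pdx, which catalyses the step that opens that pathway, ranged from 3.29 to 6.03 cpm in WT and from 6.12 to 8.0 cpm in cmGch1 KO, with a log2 fold change of 0.41 (edgeR FDR 0.209). The malic enzyme genes differed in sign, at 0.33 for Me2 and -0.27 for Me3 (edgeR FDR 0.191 and 0.167). Me3 passed in 1 of the 12 omissions of a single library, that of cmGch1 KO replicate 1 (-0.33, edgeR FDR 0.0330). Without cmGch1 KO replicates 2 and 3 the edgeR FDR was 0.724 for G6pdx, 0.655 for Me2 and 0.651 for Me3.

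Of the genes that phosphorylate or carry NAD in mitochondria, Nadk2, the mitochondrial NAD kinase, ranged from 82.2 to 93.9 cpm in WT and from 64.6 to 82.0 cpm in cmGch1 KO, without overlap, and had a log2 fold change of -0.22 (SE 0.06, edgeR FDR 0.145). Slc25a51, the mitochondrial NAD carrier, averaged 90.2 ± 4.62 cpm in WT libraries and 79.1 ± 5.72 cpm in those of cmGch1 KO (SD, 6 libraries each), with a log2 fold change of -0.19 (edgeR FDR 0.211). Glud1, the mitochondrial glutamate dehydrogenase, ranged from 157 to 186 cpm in WT and from 133 to 154 cpm in cmGch1 KO (log2 fold change -0.23, edgeR FDR 0.123). The cytosolic kinase Nadk had a log2 fold change of 0.06 (edgeR FDR 0.855).

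None of the remaining sirtuins, Sirt2, Sirt4, Sirt6 and Sirt7, passed (lowest edgeR FDR 0.734), and none had an unadjusted p under 0.05. Of the 15 other ADP-ribosyl transferases, 0 passed with edgeR or DESeq2. Parp10 and Parp16 were higher at an unadjusted edgeR p under 0.05, as were 7.01% of all tested genes. Their log2 fold changes were 0.19 and 0.39, the latter 0.25 without cmGch1 KO replicates 2 and 3. The 95% interval of Parp10 began next to 0 (3.08e-05 to 0.38). Adprhl1, a heart-expressed relative of the ADP-ribose hydrolases, ranged from 661 to 748 cpm in WT and from 752 to 895 cpm in cmGch1 KO, without overlap (log2 fold change 0.22, edgeR FDR 0.155). Without cmGch1 KO replicates 2 and 3 the edgeR FDR of Adprhl1 was 0.663. Cd38, a membrane enzyme that breaks down NAD, had a log2 fold change of 0.22 (edgeR FDR 0.478). In the salvage list, Nt5e, which forms nucleosides at the cell surface, averaged 20.1 ± 4.06 cpm in WT libraries and 25.8 ± 2.75 cpm in those of cmGch1 KO (log2 fold change 0.37, edgeR FDR 0.201). Nt5e passed in 1 of the 12 omissions of a single library, that of WT replicate 6, the highest WT library (0.48, edgeR FDR 0.0218). Without cmGch1 KO replicates 2 and 3 the edgeR FDR of Nt5e was 0.558. The nucleoside transporter Slc29a2 had a log2 fold change of 0.27 (edgeR FDR 0.407), and 0.14 without cmGch1 KO replicates 2 and 3.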

How the data were processed

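RNA-seq counts from the left ventricles of 6 WT and 6 cmGch1 KO mice were analysed, with genotypes taken from the labels. The authors deposited raw counts per Ensembl gene, made from stranded paired-end libraries with HISAT2, Picard and featureCounts according to the methods, with GRCm38 named in the submitters' processing notes. The annotation and the strand setting are not given in the sources used here. The authors also deposited normalized log2 values, used only as an alternative. Symbols and coordinates came from GENCODE M21, which held 26582 of the 26921 identifiers (98.7%). The 10 genes and the lists were chosen with earlier results of these data known.

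Genes above 3 cpm in 6 or more libraries were fitted on genotype with edgeR 4.0.16 in R 4.3.3 (TMM, quasi-likelihood, FDR threshold 0.05), and single genes and ratios (counts + 0.5) were tested by exact permutation over libraries with scipy 1.17.1. Correlations used log2 cpm with a prior count of 2 and 100000 permutations, adjusted over the pairs. Alternatives used DESeq2 1.42.0, limma 3.58.1 and sva 3.50.0. No library was a repeat of another of its genotype (chi-square per degree of freedom of at least 16.3 over 30 pairs). The scripts were tested on simulated data. Named genes were the 10, Gch1, list genes with an FDR or unadjusted p under 0.05 or the largest change of their list, and the 3 genes most like each of the 10. Others (Atcayos, Nadk, Cd38 and neighbours in the lists) were named after their values were seen. A count of 0 allows up to 3 counts, at most 0.151 cpm in the shallowest library, for counting error only.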

Additional observations from a re-analysis of the deposited data

Results flagged for a closer look

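Over 28 genes and 3 ratios, 62 groups of 6 libraries were examined for a library far from the others of its genotype, and 3 were found. Chance flags about 1 in 20 groups. WT replicate 2 had the highest log2 ratio of Nmrk2 to Nampt of its group, -4.69, with the next at -5.42. WT replicate 6 stood apart in Nt5e, at 28.0 cpm with the next at 19.6 cpm. Without it Nt5e passed, at a log2 fold change of 0.48 and an edgeR FDR of 0.0218. No other omission of a single library brought this about. WT replicate 1 stood apart in Me3, at 104.6 cpm with the next at 88.4 cpm.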

How the results depend on the processing

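Nampt and Nmnat3 kept a negative log2 fold change and an unadjusted p under 0.05 in all 23 alternatives, with FDR from 0.0646 to 0.678 for Nampt and from 0.0134 to 0.619 for Nmnat3. With 1 surrogate variable 1 of the 10 genes was called (Nmnat3, -0.36, FDR 0.0134). The calls over all genes numbered 126 in the reported fit, 373 with DESeq2's Wald test, 636 with 1 surrogate variable, 64 with sex-linked expression as a covariate and 34 without both libraries with high Xist. The genes called in the 7 lists numbered 2, and 6 with DESeq2 or the surrogate variable, where Nadk2, Me3, Glud1 and Adprhl1 joined Mthfd2 and Pgd. They numbered 1, Mthfd2, with no low-count filter, with the sex-linked covariate and without both high-Xist libraries. With the minimum in all 12 libraries they also numbered 1, but there it was Pgd (edgeR FDR 0.0397). Mthfd2, at 2.75 cpm in its lowest WT library, was not tested under that minimum. The sign turned for Nmnat1 (0.0631), Sirt5 (0.0346) and Parp1 (0.0367) with library size scaling, for Sirt5 (0.0303) and Parp1 (0.0049) with the sex-linked covariate, and for Sirt5 (0.0238) and Parp1 (0.0084) without both high-Xist libraries. The ratio of Nmrk2 to Nampt was 0.47 without both. With genotype means kept, 6 pairs passed. The cause of these shifts was not tested.

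Leaving out 1 library gave 72 to 207 calls over all genes, 0 to 1 among the 10 and 1 to 3 in the lists. The log2 fold change then ran from -0.0672 to 0.0446 for Nmnat1, from -0.0803 to 0.0093 for Sirt5 and from -0.0839 to 0.0068 for Parp1, and the ratios from -0.42 to -0.33 (Nmnat3 to Nmnat1), 0.57 to 0.90 (Nmrk2 to Nampt) and 0.29 to 0.64 (Nmrk2 to Nmrk1).

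The sources do not say that a replicate number marks a shared animal, litter or day, so the numbers were not used as pairs. The correlation of same-numbered libraries ran from -0.13 to 0.68, and 3 of 6 numbers (1, 5 and 6) matched best with their own, a hint of pairing in those. With the replicate block, 188 genes were called (76 lower, 112 higher), 1 of the 10 passed (Nmnat3, -0.37, FDR 0.0337), Me3 passed and Pgd did not (FDR 0.0503). The paired difference in the ratio of Nmnat3 to Nmnat1 was -0.36 (exact permutation of signs, p = 0.0625). With 6 same-numbered differences this test has few possible outcomes, so its p cannot become very small.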
